A study of Mus musculus with 4 samples.

Results

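The complement group described here holds 8 genes (C3, C4b, Cfb, Cfi, Serping1, Cd55, Cd59a and Masp1). Its members were every probe set of the array whose annotation gave exactly 1 gene symbol and that symbol was among the 8. This rule found 13 of the 45037 probe sets, from 6 of the 8 genes: 5 for Masp1, 3 for Cd55, 2 for Cd59a and 1 each for Cfb, Cfi and Serping1. C3 and C4b had 0 such probe sets, and the single probe set that lists C4b also lists C4a and was not analysed here. RNA labelled as that of mouse mesangial cells, the contractile support cells between the capillaries of the kidney glomerulus, had been measured on 4 one-colour arrays. Of these, 2 were labelled low glucose and 2 were labelled as treated with TGF-beta1, transforming growth factor beta 1, a growth factor linked to scarring of the kidney. The sources used here do not give the glucose level of the TGF-beta1 arrays, the doses and times, or whether the cells were a line or a primary culture. A difference in glucose and an effect of TGF-beta1 therefore cannot be told apart. No label ties arrays of the same group to separate cultures, so a p-value here measures spread between arrays that may be technical.

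Complement is a cascade of plasma and cell-surface proteins that marks particles and cells for removal and can lyse them. The classical pathway starts with the C1 complex, whose proteases C1r and C1s cut C4 and C2, and the lectin pathway starts with the MASP proteases. The alternative pathway joins factor B to C3, and all pathways meet at the cleavage of C3. Host cells are shielded by inhibitors, among them CD55, which speeds the decay of the convertases, CD59, which blocks the membrane attack complex, factor I, which cuts C3b and C4b, and the C1 inhibitor encoded by Serping1. Kidney cells make several complement components themselves, and complement deposits in the mesangium mark several forms of glomerulonephritis.

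The probe sets of the complement group differed little between TGF-beta1 and low glucose. Differences are TGF-beta1 minus low glucose on the scale of log2(intensity + 46.9) after quantile normalisation, which understates the change of dim probe sets. Over the 13 probe sets they ran from -0.09 to 0.17. The median over the brightest probe set of each of the 6 genes was -0.01, beside 0.00 over the 18193 genes with a probe set. The median absolute difference was 0.05 over the 13 probe sets and 0.07 over all 45037. A filter kept the 27022 probe sets with a mean log2 value at or above the 40th percentile, 6.85, and 5 of the 13 passed it (3 of Masp1, 1 of Cfi and 1 of Cd59a). None of the 5 was called at an adjusted p under 0.05 with limma, fitted across all 27022 probe sets with the array pair as a block, while 15.9% of all tested probe sets were called (6.94% higher and 8.92% lower in TGF-beta1). At an unadjusted p under 0.05, 1 of the 5 passed with the block and 0 without it, beside 27.3% and 1.64% of all tested probe sets. With so few members tested, a count of 0 does not set the group apart from that background, and a p that misses the threshold does not show that a level was equal.

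Every test here depends on the array pair. The arrays fell into 2 pairs that each held both groups: low glucose replicate 1 with TGF-beta1 replicate 2 (pair 1) and low glucose replicate 2 with TGF-beta1 replicate 1 (pair 2). Pair 1 is also the pair of arrays whose titles carry the same repeat tag. In 18 probe sets of hybridisation spike-ins, arrays of the same pair differed by a mean of 0.0449 (pair 1) and 0.0847 (pair 2) in log2 units regardless of sign, and arrays of different pairs by 0.855 or more. With the pair as a block the fit has 1 residual degree of freedom and every probe set takes the spread of those of its brightness, so "rose" and "fell" below rest on that pooled spread. Without the block, limma called 0 of 27022 probe sets, and 443 had an unadjusted p under 0.05. A blocked model whose prior was lowered to 2.68 degrees of freedom called 0 as well. Values after ± are standard errors of the blocked fit, with n = 2 arrays per group.

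**Figure D1:**
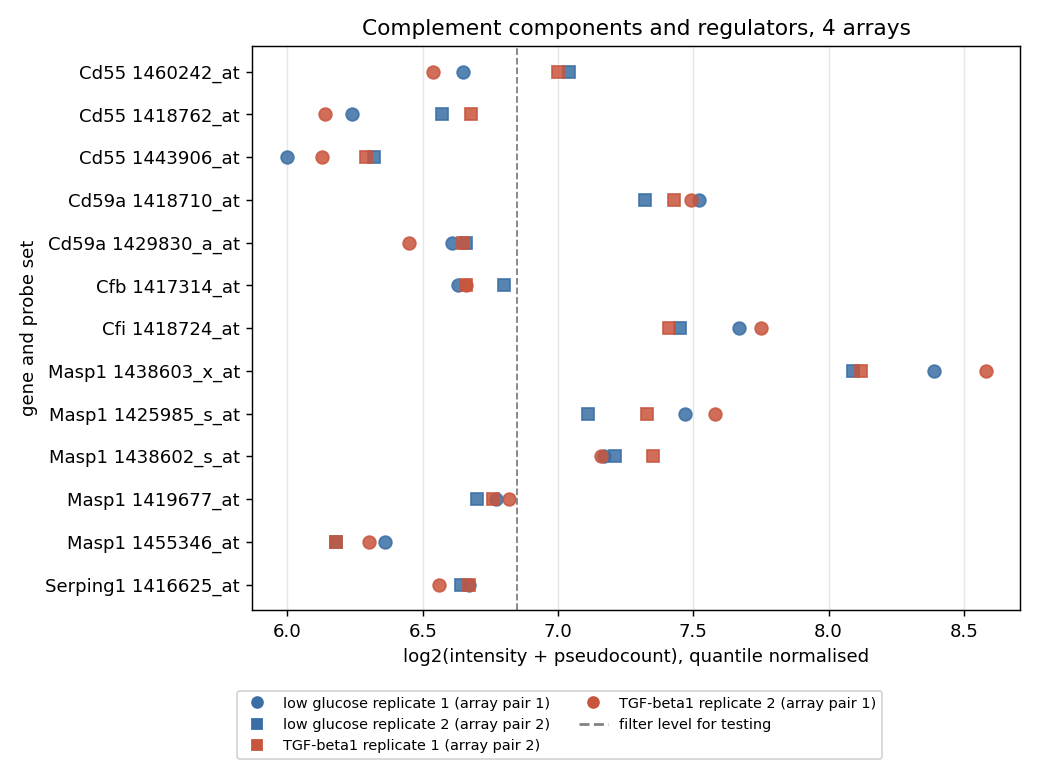
Log2 levels (x axis, log2 of intensity plus the pseudocount, quantile normalised) of the 13 probe sets of the complement group (rows) on the 4 arrays, coloured by group, with circles for array pair 1 and squares for array pair 2. The groups overlap in every row, and 8 rows have a mean left of the dashed filter level of 6.85.

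Masp1 encodes a serine protease of the lectin pathway that is also spliced into other products. Its probe set 1438603_x_at had deposited intensities of 296 and 214 in low glucose, against 222 and 340 in TGF-beta1, and the difference was 0.11 ± 0.0704 (adjusted p = 0.292 with limma). Both arrays of pair 1 were high and both of pair 2 were low, whatever the group. Probe set 1425985_s_at stood at 143 and 80.3 in low glucose, against 104 and 159 in TGF-beta1. It had the largest difference of the group, 0.17 ± 0.0658, with 0.11 in pair 1 and 0.22 in pair 2 (adjusted p = 0.0665 with limma). With the authors' scaling, without further normalisation, the same probe set was at 0.18 and passed (adjusted p = 0.0427 with limma), the only setting with a block that called a probe set of the group. Its groups overlapped, since low glucose replicate 1 lay above TGF-beta1 replicate 1. The third tested probe set, 1438602_s_at, read 107 and 89.3 in low glucose, against 106 and 109 in TGF-beta1, a difference of 0.06 ± 0.0687 (adjusted p = 0.6 with limma). Its value was -0.01 within pair 1 and 0.14 within pair 2. The other 2 Masp1 probe sets lay below the filter, at 0.06 and -0.03. All 3 tested Masp1 probe sets have an ID ending in _s_at or _x_at, the mark of probes that may match several transcripts.

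Cfi encodes factor I, the plasma protease that inactivates C3b and C4b. Its probe set read 170 and 115 in low glucose, against 112 and 181 in TGF-beta1. The arrays again sorted by pair and not by group: the lowest and the highest value were both TGF-beta1 arrays. The difference was 0.02 ± 0.064 (adjusted p = 0.899 with limma), with a 95% interval from -0.11 to 0.14 with the block and from -0.49 to 0.52 without it. Cfb, which encodes factor B of the alternative pathway convertase, read 55.7 and 57.4 in low glucose, against 49.8 and 60.1 in TGF-beta1. It lay below the filter and was not tested, and its difference was -0.05, with 0.03 in pair 1 and -0.14 in pair 2. Serping1, the inhibitor of C1r, C1s and the MASP proteases, was also below the filter. It read 59 and 47.4 in low glucose, against 50.9 and 52.7 in TGF-beta1, a difference of -0.03.

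The membrane inhibitors Cd55 and Cd59a showed the same picture. Cd59a encodes the more widely expressed of the mouse CD59 proteins, and its tested probe set 1418710_at read 149 and 100 in low glucose, against 115 and 147 in TGF-beta1. The difference was 0.04 ± 0.0649 (adjusted p = 0.749 with limma), with a 95% interval from -0.09 to 0.17 with the block and from -0.35 to 0.43 without it. The second Cd59a probe set was below the filter at -0.09. Cd55 encodes decay-accelerating factor, and all 3 of its probe sets were below the filter. The brightest of them, 1460242_at, read 57.7 and 74.6 in low glucose, against 73.9 and 50.9 in TGF-beta1, a difference of -0.07. It was high on both arrays of pair 2 and low on both of pair 1. The other Cd55 probe sets differed by 0.01 and 0.05. Cd55b, a close copy of Cd55 and its neighbour in the genome, had 1 probe set with readings of 6.23 and 13.9 in low glucose, against 10.5 and 3.06 in TGF-beta1, below the filter.

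Promoter sequence, from 250 bases before to 50 after the transcription start in RefSeq's mouse assembly GRCm38.p6, was at hand for 3 of the 8 genes (C3, Cd55 and Cd59a). The windows of Cd55 (chr1:130462695-130462994, minus strand) and Cd59a (chr2:104095551-104095850, plus strand) are shown because these genes were measured. That of C1ra (chr6:124512371-124512670, plus strand) is shown beside them because C1ra differed most among the other complement genes described below. Capitals mark matches on either strand to 6 motifs: the SMAD box CAGAC, AP-1 TGANTCA, C/EBP TTGCNNAA, NF-kB (GGG, any 2 bases, then TTTCC), the interferon GAS element TTCNNNGAA and the ISRE (GAAA, any 2 bases, then GAAA).
Cd55: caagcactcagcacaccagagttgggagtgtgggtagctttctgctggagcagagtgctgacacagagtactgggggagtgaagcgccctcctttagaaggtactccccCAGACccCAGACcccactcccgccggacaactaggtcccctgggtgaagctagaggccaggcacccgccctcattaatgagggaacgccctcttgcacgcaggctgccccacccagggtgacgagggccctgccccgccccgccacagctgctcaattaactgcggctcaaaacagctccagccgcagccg
Cd59a: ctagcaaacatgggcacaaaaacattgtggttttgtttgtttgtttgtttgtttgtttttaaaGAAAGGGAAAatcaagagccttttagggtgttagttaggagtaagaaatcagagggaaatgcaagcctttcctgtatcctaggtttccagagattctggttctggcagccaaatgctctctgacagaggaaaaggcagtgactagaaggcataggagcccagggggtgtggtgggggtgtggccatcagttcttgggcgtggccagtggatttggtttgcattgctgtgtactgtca
C1ra: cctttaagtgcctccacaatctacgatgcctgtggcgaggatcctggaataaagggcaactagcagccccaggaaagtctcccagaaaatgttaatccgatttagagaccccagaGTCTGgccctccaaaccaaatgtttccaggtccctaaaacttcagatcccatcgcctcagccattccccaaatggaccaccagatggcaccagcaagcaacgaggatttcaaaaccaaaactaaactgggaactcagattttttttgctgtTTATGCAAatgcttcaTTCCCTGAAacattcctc
Cd55 had 2 matches to the SMAD box, a motif found in 49.6% of the 32851 promoter windows of the same length. Cd59a had 1 match to the ISRE, found in 3.44% of the windows. C1ra had 1 match each to the SMAD box, to C/EBP (10.8% of windows) and to GAS (8.3%), with no overlap between them. AP-1 (7.81% of windows) and NF-kB (1.63%) matched none of the 3. A match is a string of letters in a window and not a measured site.

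For each of the 13 probe sets the gap between the array pairs was larger than the difference between the groups. That order held for 75.2% of all 45037 probe sets. The groups did not overlap in 0 of the 13, beside 19.2% of all probe sets, nor in any of the 5 tested, beside 19.8% of those kept. The 2 counts largely measure the same thing, since a pair gap larger than the group difference makes the groups overlap. The sign of the difference was opposite within the pairs in 8 of the 13, against 39.5% of all probe sets. The gap reached 0.43 in size for a Cd55 probe set, where pair 2 was higher (-0.43 as pair 1 minus pair 2), and 0.38 for Masp1 1438603_x_at, where pair 1 was higher.

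**Figure D2:**
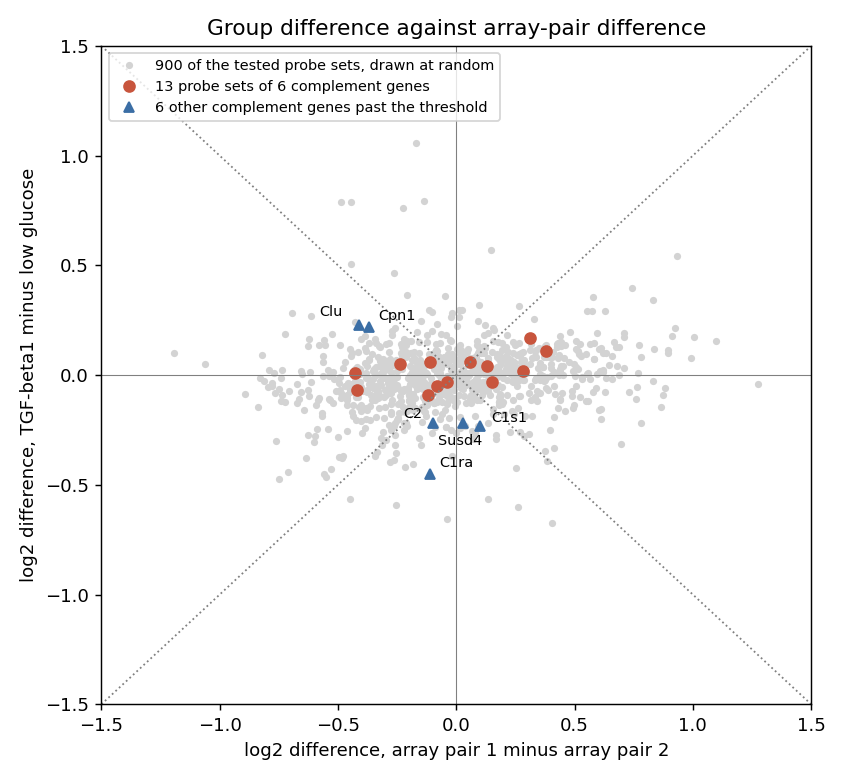
Group difference (y axis, log2, TGF-beta1 minus low glucose) against array-pair difference (x axis, log2, pair 1 minus pair 2) for the 13 probe sets of the complement group, the brightest probe set of 6 other complement genes past the threshold, and 900 of the tested probe sets drawn at random as background, of which 1 lies outside the axes. All 13 lie left or right of the dotted diagonals, where the pair gap is the larger of both differences (a dim Masp1 probe set, at 0.06 on both axes, only just), while C1ra, C1s1, C2 and Susd4 lie below them.

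Among other genes of the cascade, those of the C1 proteases and C2 fell, and the other 5 tested genes of the initiation steps were not called. A list of 50 further complement genes had 41 with a probe set of 1 symbol and 23 above the filter. Of these 23 genes, taken at their brightest probe set, 2 rose, 4 fell and 17 were not called, with a median difference of -0.02. Of the C1q genes, C1qb was at -0.07 (adjusted p = 0.595 with limma), and C1qa and C1qc were below the filter. Over all 13565 genes tested, 7.53% rose and 9.96% fell. At an unadjusted p under 0.05, 9 of the 23 passed with limma and the block and 1 without it, beside 29.4% and 2.01% of all genes tested. Each of the 6 calls ended in the fit without the block (adjusted p = 1 with limma).

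C1ra, which encodes the protease C1r, read 313 and 319 in low glucose, against 222 and 218 in TGF-beta1, so both TGF-beta1 arrays lay below both low glucose arrays. It fell by 0.45 ± 0.0701 on the log2 scale, with -0.47 in pair 1 and -0.42 in pair 2 (adjusted p = 1.09e-08 with limma and the block). It was also the 1 gene of the list with an unadjusted p under 0.05 without the block (0.0436 with limma), and with 1 array left out it stayed between -0.51 and -0.38. C1s1, which encodes the protease C1s that C1r activates, read 107 and 81.8 in low glucose, against 62.5 and 90.2 in TGF-beta1. After normalisation both TGF-beta1 arrays were again the lower ones, and C1s1 fell by 0.23 ± 0.0744 (-0.18 in pair 1 and -0.28 in pair 2, adjusted p = 0.0165 with limma). The only C1s1 probe set has an ID ending in _s_at, as for Masp1, and may match several transcripts. C1ra and C1s1 are neighbours on chromosome 6 of GRCm38.p6.

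C2, the substrate of C1s and the neighbour of Cfb on chromosome 17, fell on all 3 of its probe sets. The brightest read 237 and 249 in low glucose, against 193 and 209 in TGF-beta1, a fall of 0.22 ± 0.0669 (-0.16 in pair 1 and -0.28 in pair 2, adjusted p = 0.00985 with limma). On this probe set the groups did not overlap, and it stood at -0.14 when low glucose replicate 2 was dropped. The other 2 probe sets fell by 0.37, where the groups overlapped, and by 0.27. The brightest probe set and the one at -0.37 have IDs ending in _x_at, as for Masp1, and may match several transcripts. The one at -0.27 has no such ending. Cfb, which has the same role in the alternative pathway as C2 in the classical one, was at -0.05 without a test, and the difference between both genes was not tested.

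**Figure D3:**
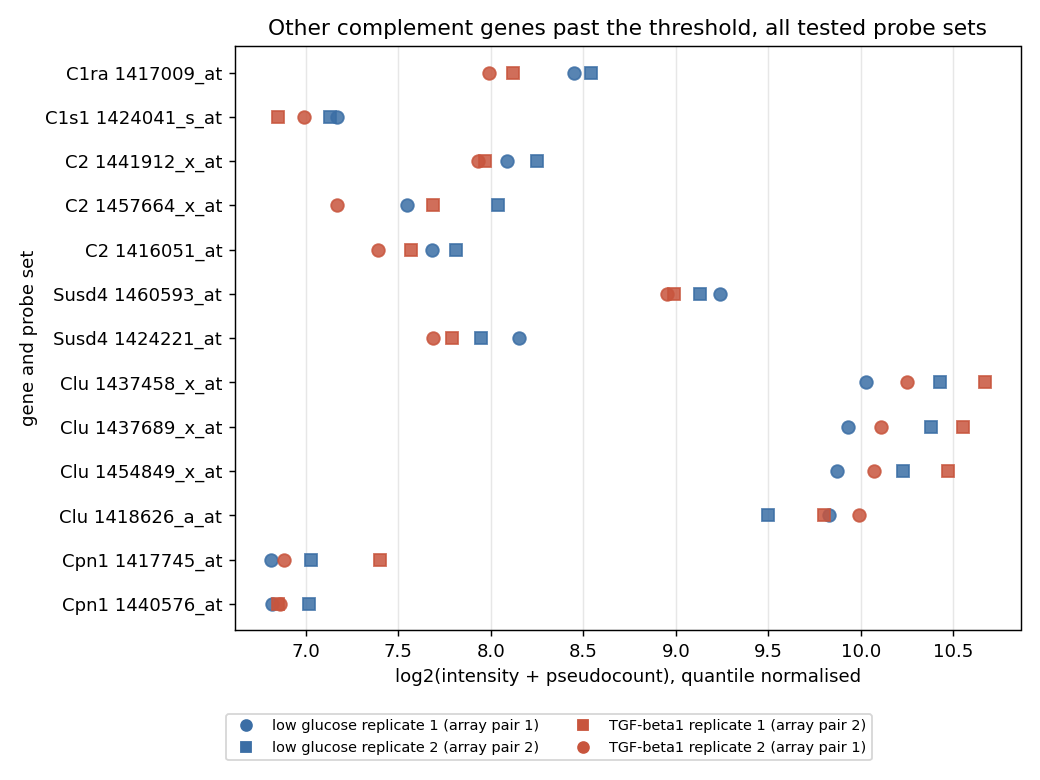
Log2 levels (x axis, log2 of intensity plus the pseudocount, quantile normalised) of all tested probe sets (rows) of the 6 other complement genes past the threshold, coloured by group, with circles for array pair 1 and squares for array pair 2. C1ra, C1s1 and Susd4 have both TGF-beta1 arrays below both low glucose arrays in every row, and for Clu the TGF-beta1 array lies above the low glucose array of its own pair.

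The regulators outside the group moved both ways. Susd4, a membrane protein that inhibits complement activation, read 564 and 510 in low glucose, against 454 and 450 in TGF-beta1. It fell by 0.22 ± 0.08 (-0.30 in pair 1 and -0.15 in pair 2, adjusted p = 0.0396 with limma), and its other probe set fell by 0.31. Clu encodes clusterin, a secreted chaperone that also restrains the membrane attack complex, and read 1014 and 1307 in low glucose, against 1551 and 1185 in TGF-beta1. It rose by 0.23 ± 0.079 (0.22 in pair 1 and 0.23 in pair 2, adjusted p = 0.0307 with limma), and 3 of its 4 probe sets rose. The Clu call ended with arrays centred on their medians (0.20, adjusted p = 0.0659 with limma). With 1 array left out and no block, Clu stood at 0.02 when either low glucose replicate 1 or TGF-beta1 replicate 1 was dropped, and at 0.43 and 0.44 when either of the other arrays was.

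Cpn1, a subunit of the carboxypeptidase that inactivates the anaphylatoxins, rose by 0.22 ± 0.0744 (adjusted p = 0.0212 with limma), from 70.8 and 74.1 in low glucose up to 112 and 79.8 in TGF-beta1. Only 1 of its 2 probe sets rose, and the other was at -0.06. On the probe set that rose, the value was 0.37 within pair 2 and 0.08 within pair 1. Which array that disagreement rests on cannot be told. Leaving out 1 array, with no block, mixes the array pairs into the difference. Cpn1 then stood at -0.03 without TGF-beta1 replicate 1 and at 0.11 without low glucose replicate 1. It stood at 0.33 without low glucose replicate 2 and at 0.48 without TGF-beta1 replicate 2. Cr1l, which encodes the rodent C3 convertase inhibitor Crry, read 1232 and 1402 in low glucose, against 1458 and 1273 in TGF-beta1, a difference of 0.05 ± 0.0782 (adjusted p = 0.756 with limma). The uncalled genes with the largest differences were C4bp at -0.16, C8g at -0.15 and Cd93 at 0.15.

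None of the 5 terminal and alternative pathway genes tested (C6, C8b, C8g, C9 and Cfp) was called with limma, nor any of the 5 receptors (C5ar1, Cd93, Cr2, Itgam and Itgax). Over all 13565 genes tested, 17.5% were called. At an unadjusted p under 0.05, 1 gene of each set passed with the block (C8g and Cd93) and 0 without it, beside 29.4% and 2.01% of all genes tested. With 5 genes per set, these counts do not set either set apart from all genes. The differences ran from -0.15 to 0.09 over the former set and from -0.10 to 0.15 over the latter. C1qbp, of the initiation list, encodes a mitochondrial protein that binds C1q. It read 4077 and 5159 in low glucose, against 4900 and 4327 in TGF-beta1, and was at 0.01 ± 0.0552 (adjusted p = 0.946 with limma). Its other probe set was at 0.10, with both TGF-beta1 arrays above both low glucose arrays, and was not called (adjusted p = 0.395 with limma).

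**Figure D4:**
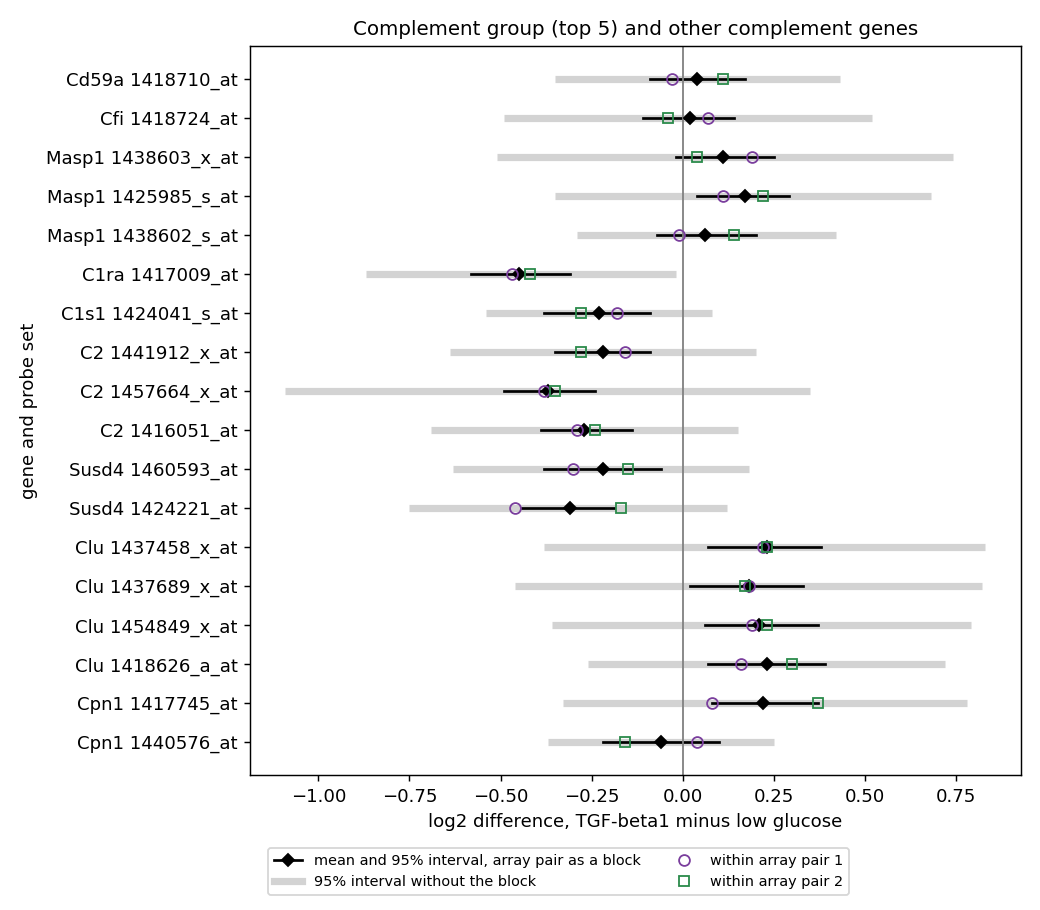
Log2 difference, TGF-beta1 minus low glucose (x axis), of the 5 tested probe sets of the complement group (top rows) and all tested probe sets of the 6 other complement genes past the threshold: diamonds and black lines give the mean and its 95% interval with the array pair as a block, grey bars the 95% interval without it, and open symbols the value within each pair. Among the 18 rows the grey bar leaves out 0 only for C1ra (-0.87 to -0.02).

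Cytokine signals that are known to raise complement gene expression in other settings, such as interleukin 6, interleukin 1 and interferon gamma, were followed through a list of 20 genes. It holds 3 cytokines (Il6, Il1b and Tnf) with receptors, transcription factors and feedback inhibitors of their pathways and that of interferon gamma, and also Nr1h4 and Klf10, which belong to other pathways. Of 17 tested, 4 rose, 2 fell and 11 were not called, beside 7.53% higher and 9.96% lower over all genes, and the median was 0.12 beside 0.00. At an unadjusted p under 0.05, 8 of the 17 passed with the block and 0 without it, beside the same 29.4% and 2.01%. Cebpd, a C/EBP transcription factor of the acute phase response, read 128 and 207 in low glucose, against 356 and 270 in TGF-beta1. Both TGF-beta1 arrays were the higher ones, and Cebpd rose by 0.77 ± 0.0673 (0.92 in pair 1 and 0.63 in pair 2, adjusted p = 3.73e-28 with limma). It stood at 0.43 when low glucose replicate 1 was dropped.

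Cebpb, its relative, rose by 0.47 ± 0.0794 (0.53 in pair 1 and 0.40 in pair 2, adjusted p = 1.87e-07 with limma) from 1238 and 827 in low glucose up to 1117 and 1834 in TGF-beta1. Dropping TGF-beta1 replicate 2 left Cebpb at 0.14 and dropping low glucose replicate 2 at 0.21, while it reached 0.73 and 0.79 when low glucose replicate 1 or TGF-beta1 replicate 1 was dropped. Klf10, a TGF-beta-induced zinc finger factor, rose by 0.31 ± 0.0754 and Rela, a subunit of NF-kB, by 0.23 ± 0.0747. Within pairs 1 and 2 Klf10 was at 0.39 and 0.22, and Rela at 0.22 and 0.24. Klf10 stood at -0.04 and 0.04 when low glucose replicate 1 or TGF-beta1 replicate 1 was dropped, and at 0.66 and 0.57 when the other array of either group was. Rela stood at 0.12 and 0.13 when low glucose replicate 2 or TGF-beta1 replicate 2 was dropped. Such values, with 1 array left out and no block, mix the array pairs into the group difference. Nr1h4, the bile acid receptor, fell by 0.19 ± 0.0638, a call that ended without the filter (adjusted p = 0.0935 with limma).

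Il1b, interleukin 1 beta, fell by 0.18 ± 0.0644, but its sign differed between pairs, with -0.43 in pair 1 and 0.07 in pair 2. It was at 0.12 without low glucose replicate 1 and at -0.48 without low glucose replicate 2. Its call ended with a floor in place of the pseudocount (adjusted p = 0.0505 with limma), and with the authors' scaling or without the filter (0.106 each). The interferon gamma receptor chains Ifngr1 and Ifngr2 were at -0.18 and 0.17, and Socs3, a feedback inhibitor of cytokine receptors, at 0.14, all without a call. One of the 3 Socs3 probe sets rose.

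Markers of other cells were read beside these values. Over all 13565 genes tested, 7.53% rose and 9.96% fell with the block. Each marker list had 10 tested genes or fewer, and no count was tested against these shares. Among markers of macrophages and leukocytes, 1 of 7 tested fell (Csf1r) and 0 rose. The intensities summed over the list of 12 were 2685 and 2402 in low glucose, against 2108 and 2347 in TGF-beta1. Csf1r alone read 1658 and 1274 in low glucose, against 952 and 1269 in TGF-beta1, a large part of each sum. The sum without Csf1r was not taken, so the order of the sums says little about the other markers. Ptprc, the pan-leukocyte marker CD45, read between 20.3 and 35.8 on its 2 probe sets, below the filter. Of the tubule epithelium markers tested, 2 of 8 rose (Krt18 by 0.54 and Krt8 by 0.40) and 2 fell (Cdh16 by 0.31 and Lrp2 by 0.29). The sum over the 10 tubule markers was 5907 and 5704 in low glucose, against 6746 and 6497 in TGF-beta1. Krt18 alone set that order: without it the other 9 summed to 3305 and 2908 in low glucose, against 2628 and 2749 in TGF-beta1. Cdh16, a kidney tubule cadherin, read 2014 and 1919 in low glucose, against 1682 and 1495 in TGF-beta1, most of each sum without Krt18. A sum without Cdh16 as well was not taken, so the order of these sums says little about the other markers. Cdh16 stood at -0.20 when TGF-beta1 replicate 2 was dropped. Aqp2, Umod and Slc12a3 read between 71.9 and 129 on their brightest probe sets and were not called, and Cdh1 and Slc12a1 were below the filter.

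Of 10 mesangium and pericyte markers tested, 3 rose and 1 fell, beside 7.53% and 9.96% of all genes tested. Vim and Tagln had the brightest probe sets and rose by 0.29 and 0.88. Acta2 rose by 0.32 on its brightest probe set, whose ID ends in _s_at, and stood at 0.18 when TGF-beta1 replicate 1 was dropped. Its other probe sets were below the filter, at 0.02 and -0.06. Rgs5 fell by 0.23 on 1 of its 4 probe sets, with -0.45 in pair 1 and -0.01 in pair 2, and the other 3 were below the filter at 0.06, -0.06 and -0.02. Dropping low glucose replicate 1 turned Rgs5 to 0.15 and dropping TGF-beta1 replicate 1 left -0.07, against -0.62 and -0.40 when the other array of either group was dropped. Pdgfrb, a defining receptor of pericytes and mesangial cells, read 87.2 to 118 and was not called. Thy1 was below the filter with readings of 27.7 to 52.8. The summed intensities of the 12 markers of this list ran from 5331 to 6322 in low glucose and from 6643 to 7681 in TGF-beta1. Vim alone read 5106 and 4346 in low glucose, against 5298 and 6239 in TGF-beta1, and made up most of each sum. Sums without Vim and Tagln were not taken, so the order of the sums says little about the other markers. Among 3 podocyte markers tested, Podxl rose by 0.23, Synpo fell by 0.58 and Nphs1 was at 0.16 without a call. Podxl and Synpo each had a second tested probe set that was not called, at -0.01 and 0.07. Podxl was at 0.25 within pair 1 and 0.22 within pair 2. Leaving out 1 array mixes the array pairs into the difference. Podxl then stood at 0.00 and 0.02 without TGF-beta1 replicate 2 or low glucose replicate 2. It stood at 0.46 and 0.44 without TGF-beta1 replicate 1 or low glucose replicate 1. Synpo stood at -0.35 when TGF-beta1 replicate 2 was dropped. The podocyte list summed to 580 to 738 in low glucose and 545 to 778 in TGF-beta1. Of 6 endothelial markers 1 was above the filter (Kdr, at 0.01, while Pecam1 at -0.09 was not tested), with sums of 262 to 322 in low glucose and 239 to 329 in TGF-beta1. No marker was listed at 0. The part of other cell types in the falls of C1ra, C1s1, C2 and Susd4 was not tested, and in bulk RNA fewer cells of a type and less RNA per cell cannot be told apart.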

How the data were processed

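Per the labels, total RNA of mouse mesangial cells was hybridised to 4 one-colour arrays, 2 per group, and the group of each came from its title. The authors deposited 1 linear intensity per probe set and array, and the sources used here do not give how these were summarised and scaled. Array medians were 96.7 and 78.2 for low glucose replicates 1 and 2, and 80.3 and 99.6 for TGF-beta1 replicates 1 and 2. Of 45101 probe sets, 64 controls were left out. Platform annotation gave 34945 of the others 1 symbol, 932 several and 9160 none here, and only those with 1 were named.

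The values were taken as log2(intensity + 46.9), where 46.9 is the 25th percentile of all values. Array medians then differed by 0.227, above a limit of 0.1, so the arrays were quantile normalised. Probe sets from the 40th percentile of mean log2 upward entered limma 3.58.1 (R 4.3.3; lmFit, then eBayes with trend, two-sided, Benjamini-Hochberg over 27022), with the array pair as a block. A gene was counted at its brightest probe set. The script was tested on simulated data. Figures used matplotlib 3.10.9 (Python 3.11.15). Precision is limited by having 4 arrays.

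The members, lists, design and motifs were chosen with earlier results of these data known. Named genes were all members, other listed genes past the threshold with the 3 largest differences beyond them, and the 2 brightest and the called markers. Cr1l, C1qbp, the C1q genes, Ptprc, Thy1, Pdgfrb, the uncalled terminal and receptor genes and 3 macrophage genes of the closing section were picked with their values in view, beyond that rule. A planned search for genes patterned like C3 was not run, since C3 had no probe set by the rule.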

Additional observations from a re-analysis of the deposited data

How the results depend on the processing

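No array pairing is stated in the labels beyond the shared repeat tag, and the number of arrays, with 1 residual degree of freedom under the block, limits all calls. Leaving the array pair out of the fit (no replicate block) changed the 4287 probe sets called to 0. It also changed the 6 calls among other complement genes, and the 6 on the cytokine signalling list (Klf10 and Nr1h4 included), to 0 each. Keeping the block but lowering its prior to 2.68 degrees of freedom, as estimated for the unblocked model, also gave 0, 0 and 0. Probe sets of the complement group called were 0 in each of these fits, and 1 with the authors' scaling (Masp1 1425985_s_at). Of the calls over all probe sets, 43.8% were higher in TGF-beta1, 48.1% with the authors' scaling and 34.6% with arrays centred on their medians. With 1 probe set per gene, 2502 were called, because fewer were tested. Without 1 array and without the block, 0 to 16 probe sets were called (14 and 16 without low glucose replicate 1 or 2), and 0 of the other complement and of the cytokine signalling genes. The median over the complement group then ran from -0.04 to 0.06. Leaving out 1 array mixes the array pairs into the group difference. Of the values with a test, those that changed sign there ran from -0.06 to 0.14 for Cd59a 1418710_at, -0.15 to 0.19 for Cfi (-0.09 without low glucose replicate 2), -0.02 to 0.35 for Masp1 1425985_s_at, -0.11 to 0.34 for Masp1 1438603_x_at, -0.03 to 0.16 for Masp1 1438602_s_at, -0.03 to 0.48 for Cpn1, -0.48 to 0.12 for Il1b, -0.04 to 0.66 for Klf10 and, among the markers (left out in turn after seeing the data, as was the sum without Krt18), -0.62 to 0.15 for Rgs5. Untested probe sets whose range spans 0 were Cfb (-0.14 to 0.03), Serping1 (-0.09 to 0.02), Cd59a 1429830_a_at (-0.19 to 0.01), Masp1 1455346_at (-0.11 to 0.06) and Cd55 1460242_at (-0.31 to 0.16), 1418762_at (-0.26 to 0.28) and 1443906_at (-0.11 to 0.20). Il1b was also at 0.07 within pair 2. Across the 9 other settings of pseudocount, scaling, filter and probe sets, 219 of 225 values of single probe sets kept their sign and call or, where untested, moved by less than 1 SD between arrays. Dim probe sets such as those of Cd55, Cfb and Serping1 lie where the pseudocount compresses any change. The cause of the other moves was not tested.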

Other observations

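Csf1r, the receptor of the macrophage growth factor CSF1, stood out among the leukocyte markers. It read 1658 and 1274 in low glucose, against 952 and 1269 in TGF-beta1 on its brightest probe set, and fell by 0.38 ± 0.0789, with -0.35 in pair 1 and -0.41 in pair 2 (adjusted p = 3.24e-05 with limma and the array pair as a block; 1 without the block). All 3 Csf1r probe sets fell, and on 2 of them the groups overlapped. The brightest stood at -0.20 when TGF-beta1 replicate 1 was dropped and at -0.24 when low glucose replicate 1 was. Of other macrophage genes on the list, Adgre1 was at 0.06, Cd68 at 0.14, Lyz2 at -0.03 and Cd14 at -0.02. None of them was called with limma, and a missed threshold does not show that a level was equal. Their unadjusted p with limma and the block was 0.38 for Adgre1, 0.0488 for Cd68, 0.677 for Lyz2 and 0.795 for Cd14. The part of macrophage content in the fall of Csf1r was not tested.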
